A study of Mus musculus with 22 samples.

Results

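The genes described here are the mouse chemokines and chemokine receptors in brown adipose tissue (BAT). They were taken by symbol as the protein-coding genes named *Ccl*, *Cxcl*, *Ccr* or *Cxcr* with a number, together with *Xcl1*, *Xcr1*, *Cx3cl1*, *Cx3cr1* and *Ackr1* to *Ackr4*. Of the 55487 gene identifiers in the count tables, 67 met this rule, 44 ligands and 23 receptors. The 67 identifiers carry 62 symbols, because 7 of them are copies on unplaced scaffolds of the genome assembly (*Ccl19*, *Ccl21a*, *Ccl21b* and *Ccl27*). The low-count filter left 42 members for testing in untreated mice and 47 in mice injected with virus. *Ccl20*, *Ccl26* and the scaffold copy of *Ccl19* had no count in any of the 22 libraries, and the other members were not tested because their counts were too low.

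The study asked how loss of CPEB2, a protein that binds RNA and controls its translation, alters BAT, and whether extra PRDM16, a transcriptional regulator of brown adipocyte identity, changes the tissue of the knockout. The CPEB2-KO mice were a global knockout on a C57BL/6 background, so blood and immune cells lacked the gene as well as adipocytes, and WT mice were the controls. The untreated cohort comprised 5 WT and 5 KO mice, labelled male and 21 to 25 weeks old, which the study describes as deprived of food for some hours before BAT was taken. In the virus cohort, males of 16 weeks received 20000000000 vector genomes of adeno-associated virus (AAV) in 30 µl into interscapular BAT, expressing either GFP as the control or flag-tagged PRDM16, and BAT was taken 9 weeks later at 25 weeks. Either virus was given to 3 mice of either genotype, named by genotype and virus (KO + AAV-GFP and so on), so every mouse of this cohort carried a virus. Each library was whole BAT of 1 mouse. Untreated mice are given by replicate number and injected mice by the mouse number of the labels.

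The libraries held between 55320927 and 162721202 counts without virus and between 61636889 and 143005309 with virus, and the cohorts were scaled separately. *Cpeb2* ran from 7.69 to 14.3 CPM (counts scaled to the size of the library) in untreated WT and from 2.10 to 11.7 in untreated KO, where KO mouse 1 was at the WT level, so untreated values are given for the library labelled KO. In the virus cohort *Cpeb2* ran from 10.5 to 14.0 CPM in WT and from 4.33 to 5.55 in KO. *Prdm16* ran from 23.9 to 40.2 CPM with AAV-GFP and from 45.9 to 128 with AAV-PRDM16. Y-linked transcripts, summed, were at 0.206 to 1.17 CPM in WT mice 3 and 5 and KO mice 1, 3, 4 and 5 of the untreated cohort, although the labels give males, and at 154 CPM or more in every injected mouse. *Xist*, a transcript of female cells, was at 104 to 305 CPM in those untreated mice. WT mouse 4 held both, with 116 CPM of Y-linked transcripts and 14.0 CPM of *Xist*, which was at most 1.65 CPM in the remaining untreated mice. By these transcripts, sex was not balanced between untreated WT and KO, and its part in their differences cannot be told apart from genotype. The markers of brown adipocytes (*Ucp1*, *Cidea*, *Adipoq*, *Plin1*, *Cox8b* and *Elovl3*) summed to at least 4185 CPM in every library, and the 4 markers of lymph node stroma to at most 0.167 CPM, with *Glycam1* at 0 throughout. In whole tissue, fewer cells of a type and less RNA per cell cannot be told apart.

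Chemokines are small secreted proteins that attract leukocytes by binding G protein-coupled receptors. Inflammatory chemokines are induced by cytokines and microbial products and bring in monocytes, neutrophils and activated lymphocytes, whereas homeostatic chemokines such as CXCL12 and CCL21 are made steadily by stroma and guide cells to their niches. The atypical receptors, ACKR1 to ACKR4, bind chemokines without G protein signalling and mostly remove or transport them. Adipose tissue makes chemokines in its adipocytes, endothelium, fibroblasts and macrophages, and those that draw monocytes are known to rise in obese white fat.

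By mean CPM, *Ackr3* and *Cxcl12* were the highest members in BAT of both cohorts. Levels between genes are compared as CPM per kb of exon, since longer transcripts collect more reads. *Ackr3*, the scavenging receptor for CXCL12, had the highest level in both cohorts, with 36.8 ± 10.1 CPM per kb (mean ± SD, n = 10) in untreated and 16.6 ± 7.03 (n = 12) in injected mice. *Ackr3* and *Cxcl12* together held a median of 67.6% of the summed CPM of all members in the untreated libraries (from 43.9% to 74.9%) and 53.5% in the injected ones (from 38.4% to 75.6%). These shares are not scaled to length, and *Cxcl12*, with 8176 exon bases, held rank 4 per kb in both cohorts. *Cxcl12*, the homing ligand of stem cells and lymphocytes, stood at 7.63 ± 1.88 and 6.75 ± 1.24 CPM per kb, next to *Cxcl14*, a ligand made by epithelia and fat, at 8.95 ± 2.23 and 7.54 ± 2.37. *Ccl11*, the eosinophil attractant eotaxin, was at 9.07 ± 3.86 and 6.54 ± 1.60. The order among *Ccl11*, *Cxcl14* and *Cxcl12* was within the spread between libraries in both cohorts.

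The other members among the 10 highest differed between the cohorts in how much they varied. In untreated mice they were *Ccl6* (5.61 ± 6.91 CPM per kb), *Cxcl1* (4.51 ± 5.88), *Cxcl9* (3.96 ± 1.39), *Ccl7* (3.95 ± 4.05), *Ccl9* (3.38 ± 4.31) and *Ccl27a* (2.09 ± 0.729). For *Ccl6*, *Cxcl1*, *Ccl7* and *Ccl9* the SD over libraries exceeded the mean, and for *Ackr3*, *Cxcl12*, *Cxcl14* and *Cxcl9* it did not. In injected mice they were *Cxcl9* (7.53 ± 4.97), *Ccl6* (2.68 ± 2.64), *Cx3cl1* (1.69 ± 0.770), *Ccl27a* (1.68 ± 0.366), *Cxcl16* (1.21 ± 1.04) and *Ccl9* (1.19 ± 1.15). *Cx3cl1* encodes the membrane-bound ligand fractalkine, and *Ccl27a* a ligand best known from skin. No test was made between the cohorts.

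**Figure D1:**
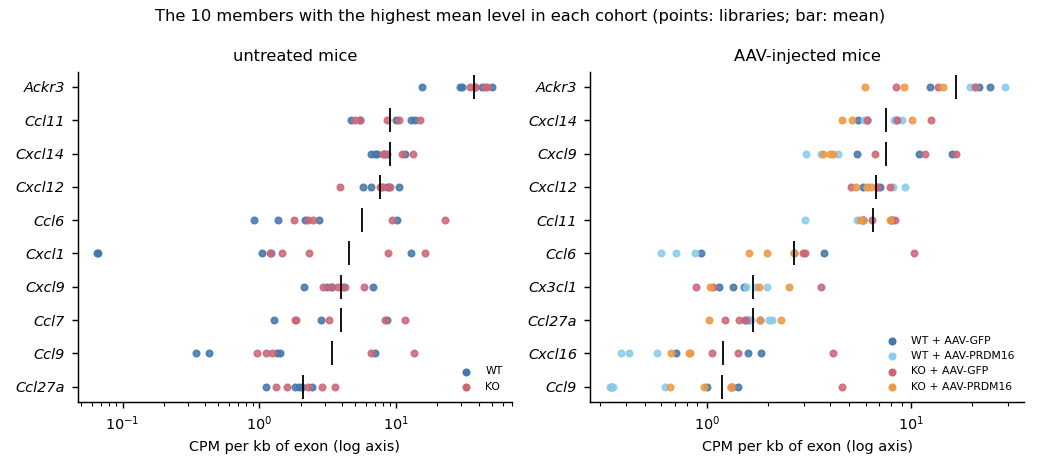
Levels of the 10 members with the highest mean in each cohort, as CPM per kb of exon on a log axis, with a point for each library coloured by group and a bar at the mean. *Ackr3* leads in both cohorts, and *Ccl6*, *Cxcl1*, *Ccl7* and *Ccl9* spread widely over the untreated libraries; *Ccl7* had no count in untreated WT mice 1 and 2, which the log axis leaves out.

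Ligands and receptors that are known to pair were both present, mostly with the ligand above its receptor per kb of exon. In injected mice *Cxcl9* and *Cxcl10* stood at 7.53 ± 4.97 and 0.550 ± 0.515 CPM per kb against 0.258 ± 0.340 for their receptor *Cxcr3*, which is carried by activated T and NK cells. The signalling receptor of CXCL12, *Cxcr4*, was at 0.773 ± 0.688, far below *Ackr3*. *Cxcl16* exceeded its receptor *Cxcr6* (0.271 ± 0.343), and *Cx3cl1* exceeded *Cx3cr1* (0.383 ± 0.201), the receptor of tissue macrophages and monocytes.

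Besides *Ackr3*, the monocyte receptor *Ccr2* also stood above its ligands in the mean. Its mean level of 0.792 ± 0.654 CPM per kb in injected mice was above the means of its ligands *Ccl7* (0.515 ± 0.527), *Ccl12* (0.373 ± 0.380) and *Ccl2* (0.287 ± 0.180), although the ranges overlapped. In WT + AAV-PRDM16 the order was the other way, with *Ccr2* at 0.269 and *Ccl7*, *Ccl12* and *Ccl2* at 0.621, 0.359 and 0.301. In untreated mice the order was the other way, with *Ccr2* at 0.371 ± 0.330, *Ccl2* at 1.48 ± 1.54 and *Ccl7* at 3.95 ± 4.05. The lymphoid pairs were sparse. *Ccl19* reached at most 5 counts in an injected library and had none in untreated ones, *Ccl21a* was at 0.376 ± 0.221 CPM per kb and *Ccr7* at 0.165 ± 0.173 in injected mice, *Cxcl13* and *Cxcr5* were at 0.161 ± 0.115 and 0.0359 ± 0.0292, and *Xcl1* and *Xcr1* at 0.138 ± 0.182 and 0.0643 ± 0.0510.

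AAV-PRDM16 against AAV-GFP gave the clearest pattern among the members, and it ran in the same direction in WT and KO. The T cell attractant *Cxcl9* and the monocyte receptor *Ccr2* were lower with AAV-PRDM16, with adjusted p just above a false discovery rate (FDR) of 0.05. The receptors *Cxcr3* and *Ccr9* and the ligand *Ccl5* had adjusted p in the same range, but they passed the low-count filter only through the AAV-GFP libraries, so their direction was fixed by the filter. By edgeR's quasi-likelihood test over both genotypes, 0 of the 47 members tested and 7 of all 18899 genes (0.037%) were called at that threshold. At an unadjusted p under 0.05, 19 members were lower and 2 higher, where 7.02% of all genes were lower and 2.07% higher. DESeq2 called 15 members at an FDR of 0.05, beside 41 genes higher and 561 lower of all 18899, and limma-voom with quality weights called 0. Among the members that DESeq2 called, *Ccl5*, *Ccl8*, *Ccr9*, *Cxcr3* and *Xcl1* had passed the filter only through the AAV-GFP libraries. The median log2 fold change of the 47 members was -0.80, against -0.01 over all genes tested, and it includes members whose direction the filter fixed. It was -0.22 without KO + AAV-GFP mouse 69, -0.43 without WT + AAV-GFP mouse 65, -0.49 without KO + AAV-PRDM16 mouse 59 or 65 and -1.23 without WT + AAV-PRDM16 mouse 80.

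The filter bears on that count. Of the 47 members, 37 would have passed it in the AAV-GFP and in the AAV-PRDM16 libraries alone, and 13 of these 37 were among the 19 lower members. *Ccl5*, *Ccl8*, *Xcl1*, *Ccr8*, *Ccr9* and *Cxcr3* passed only through the AAV-GFP libraries and so had to be lower with AAV-PRDM16. *Cxcr2*, 1 of the 2 higher members, passed only through the AAV-PRDM16 libraries, and the other was a scaffold copy of *Ccl21b*, whose reads cannot be told from those of its near-identical neighbours. Mouse 69 of KO + AAV-GFP held the highest value of 26 of the 47 members. Without it 16 of 49 members were lower at an unadjusted p under 0.05, beside 1074 of 19308 genes.

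*Cxcl9* lies next to *Cxcl10* in the *Cxcl* cluster of chromosome 5, on the minus strand at positions 92321347 to 92328079 of GRCm38. Both genes are known interferon targets and their proteins bind CXCR3. Their promoter windows, 250 bases before to 50 after the start of the gene, are shown because both ligands were lower with AAV-PRDM16. The sequences are from RefSeq (build GRCm38.p6) and read 5′ to 3′ on the gene's strand, with capitals marking a match to the interferon-stimulated response element, spelled GAAANNGAAA.
Cxcl9, chr5:92328030-92328329, minus strand: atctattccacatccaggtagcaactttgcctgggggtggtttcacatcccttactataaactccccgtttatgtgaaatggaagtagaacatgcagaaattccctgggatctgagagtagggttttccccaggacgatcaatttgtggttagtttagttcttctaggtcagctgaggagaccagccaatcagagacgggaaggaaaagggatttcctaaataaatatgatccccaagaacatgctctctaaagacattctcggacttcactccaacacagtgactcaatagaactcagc
Cxcl10, chr5:92348840-92349139, minus strand: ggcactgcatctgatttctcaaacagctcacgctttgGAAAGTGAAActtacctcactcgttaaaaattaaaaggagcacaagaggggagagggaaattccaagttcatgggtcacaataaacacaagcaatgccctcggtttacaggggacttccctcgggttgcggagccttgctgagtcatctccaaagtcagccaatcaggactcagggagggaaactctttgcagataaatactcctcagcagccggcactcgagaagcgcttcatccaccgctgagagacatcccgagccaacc
The *Cxcl10* window held a match from -213 to -204, and the *Cxcl9* window none to these letters. Of the 62 member symbols, 46 had an entry in the promoter table. On either strand this element was in 3.49% of the windows of all 27025 genes with an entry and in 3 of the 46 member windows, those of *Cxcl10*, *Cxcl14* and *Ccl19*. The gamma-activated site, spelled TTCNNNGAA, was in 8.47% of all windows and in 4 of the 46, those of *Ccl17*, *Ccr1l1*, *Ccr6* and *Cxcl14*.

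*Cxcl9* was measured at 16.4, 48.0 and 33.2 CPM in WT + AAV-GFP mice 56, 65 and 89, and between 9.21 CPM (mouse 63) and 13.2 CPM (mouse 80) in the 3 WT + AAV-PRDM16 mice. In KO it was at 35.2, 20.1 and 50.2 CPM with AAV-GFP (mice 57, 64 and 69) and at 11.2, 12.2 and 12.5 CPM with AAV-PRDM16 (mice 59, 65 and 76). All 6 AAV-GFP libraries thus lay above all 6 AAV-PRDM16 libraries, which were close to each other. Untreated mice, scaled separately, ran from 6.39 to 20.4 CPM. That range held the AAV-PRDM16 values but also WT + AAV-GFP mouse 56 and KO + AAV-GFP mouse 64. Over both genotypes *Cxcl9* was 2.93-fold lower with AAV-PRDM16 (log2 fold change -1.55 ± 0.26, SE, adjusted p = 0.0527). The change was -1.55 in WT and -1.56 in KO, each below the threshold on its own.

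*Cxcl10* ran from 0.556 to 3.91 CPM in AAV-GFP and from 0.166 to 0.919 CPM in AAV-PRDM16 libraries, with overlap. Its log2 fold change was -1.94 ± 0.54 (adjusted p = 0.139). *Cxcr3* was at 0.152, 1.63 and 0.495 CPM in WT + AAV-GFP and at 0.0468, 0 and 0.135 CPM in WT + AAV-PRDM16. In KO it was at 0.566, 0.673 and 1.57 CPM with AAV-GFP and at 0, 0.0370 and 0.0501 CPM with AAV-PRDM16. The receptor was therefore low in every AAV-PRDM16 library, with at most 14 counts, and no library overlapped between the viruses (log2 fold change -4.33 ± 0.82, adjusted p = 0.0527).

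**Figure D2:**
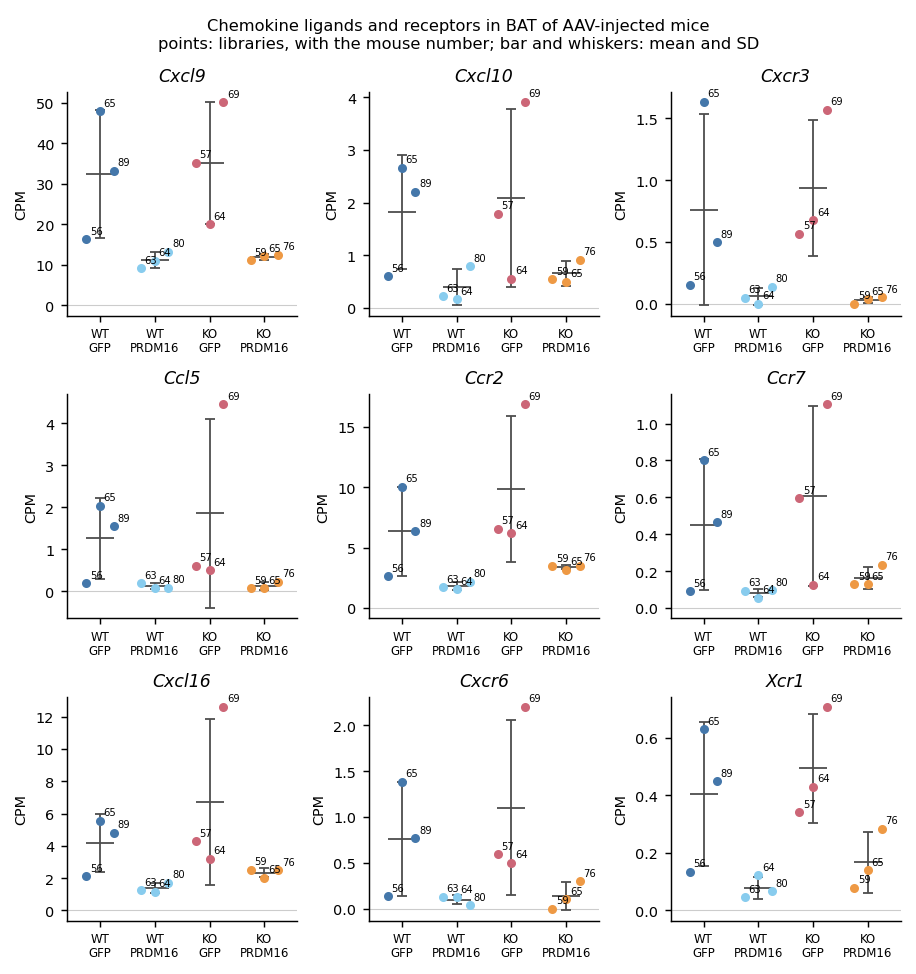
CPM of 9 members in the 12 libraries of injected mice, with a point for each library and its mouse number, and the mean and SD of each group of 3. *Cxcl9* was at 16.4 to 50.2 CPM in the AAV-GFP and 9.21 to 13.2 CPM in the AAV-PRDM16 libraries, and mouse 69 of KO + AAV-GFP is the highest library for most of these members.

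The inflammatory CC ligands split by gene. *Ccl5*, a ligand made by T and NK cells, was at 0.188, 2.03 and 1.55 CPM in WT + AAV-GFP and at 0.199, 0.0774 and 0.0867 CPM in WT + AAV-PRDM16. In KO it was at 0.611, 0.502 and 4.44 CPM with AAV-GFP and at 0.0793, 0.0740 and 0.234 CPM with AAV-PRDM16. Mouse 56 of WT + AAV-GFP was as low as the AAV-PRDM16 mice, and the other 5 AAV-GFP libraries were above all of them (log2 fold change -3.65 ± 0.73, adjusted p = 0.0544). Of the 11 tested ligands of this group, 4 were lower at an unadjusted p under 0.05, namely *Ccl5*, *Ccl6* (log2 fold change -1.57), *Ccl8* (-3.63) and *Ccl9* (-1.19). Of all genes, 7.02% were lower at that level, and *Ccl5* and *Ccl8* had to be lower because they passed the filter only through the AAV-GFP libraries. *Ccl2*, *Ccl7* and *Ccl12*, the monocyte attractants, had log2 fold changes of 0.07 ± 0.53, -0.51 ± 0.82 and -0.81 ± 1.19, and *Ccl11* one of -0.25 ± 0.20.

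Among the CC receptors, 6 of the 7 tested were lower at an unadjusted p under 0.05, where 7.02% of all genes were. Of these receptors, *Ccr8* and *Ccr9* passed the filter only through the AAV-GFP libraries and so had to be lower. *Ccr2*, which brings monocytes out of the marrow, was at 2.61, 10.0 and 6.37 CPM in WT + AAV-GFP and at 1.73, 1.56 and 2.17 CPM in WT + AAV-PRDM16. In KO it was at 6.57, 6.17 and 16.9 CPM with AAV-GFP and at 3.47, 3.15 and 3.51 CPM with AAV-PRDM16. Within each genotype the viruses did not overlap, but WT + AAV-GFP mouse 56 was below the KO + AAV-PRDM16 mice (log2 fold change -1.68 ± 0.32, adjusted p = 0.0529). *Ccr9*, the gut-homing receptor of T cells, had 58 counts over the WT + AAV-GFP and 0 over the WT + AAV-PRDM16 libraries, at least 13.8-fold lower against a floor of 3 counts over the group, and in KO it went from 11 to 74 counts a library to 3, 0 and 0. Also lower at an unadjusted p under 0.05 were *Ccr7* (log2 fold change -2.18), *Ccr1* (-1.78) and *Ccr8*, whose 51 counts in KO + AAV-GFP were all from mouse 69.

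Receptors of T, NK and dendritic cells outside the CC family were lower at an unadjusted p under 0.05, with adjusted p above 0.05. *Cxcr6*, which retains T and NK cells in tissues, was at 0.134 CPM in WT + AAV-GFP mouse 56, at 0.502 CPM or more in the other 5 AAV-GFP libraries and from 0 to 0.301 CPM in AAV-PRDM16 libraries, overlapping only through mouse 56 (log2 fold change -3.06 ± 0.79, adjusted p = 0.106). Its ligand *Cxcl16* ran from 2.12 to 12.6 CPM with AAV-GFP and from 1.15 to 2.51 CPM with AAV-PRDM16, where mouse 56 again lay among the AAV-PRDM16 values (-1.56 ± 0.34, adjusted p = 0.0616). *Xcr1*, the receptor of cross-presenting dendritic cells, had a log2 fold change of -1.97 ± 0.48 (adjusted p = 0.089). Its ligand *Xcl1*, made by NK and activated CD8 T cells, had 61 counts over WT + AAV-GFP and 0 over WT + AAV-PRDM16, at least 14.6-fold lower. In KO it had 12, 0 and 26 counts with AAV-GFP and 3, 3 and 0 with AAV-PRDM16, with overlap, and it had passed the filter only through the AAV-GFP libraries. *Cxcr4* (-1.38 ± 0.40) and *Cx3cr1* (-0.80 ± 0.31) were lower at an unadjusted p under 0.05 with adjusted p of 0.164 and 0.387.

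Among the members with the highest levels, several had values near 0 in the virus contrast. *Ackr3* had a log2 fold change of -0.15 ± 0.26, *Cxcl12* of 0.05 ± 0.12, *Cxcl14* of -0.12 ± 0.23 and *Ccl27a* of 0.25 ± 0.18. The homing ligands *Ccl21a* and *Ccl25* had 0.54 ± 0.59 and -0.14 ± 0.16, and the neutrophil attractants *Cxcl1* and *Cxcl2* had -0.33 ± 0.41 and 0.58 ± 0.60. None of these passed an unadjusted p of 0.05.

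**Figure D3:**
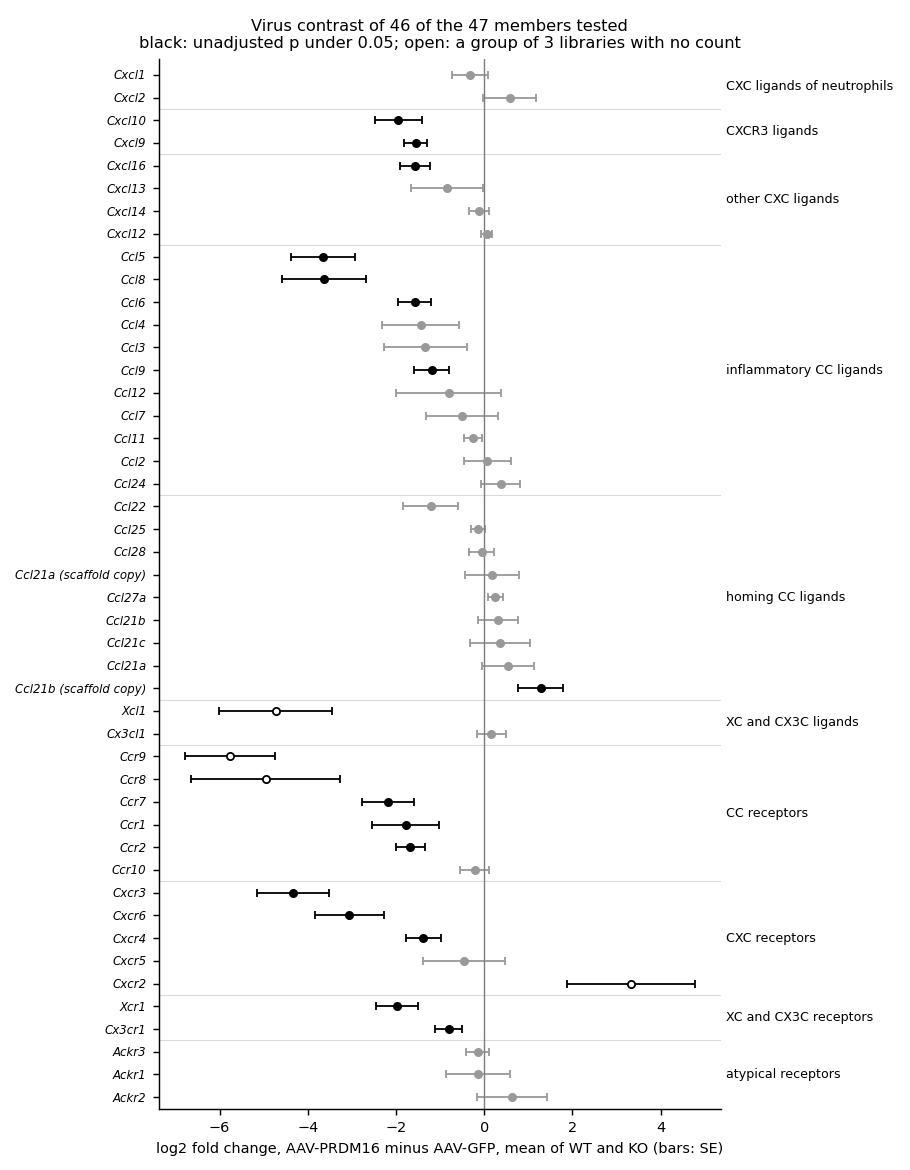
Fitted log2 fold change of AAV-PRDM16 against AAV-GFP, averaged over WT and KO, for 46 of the 47 members tested, grouped by role, with bars of 1 SE. The CXCR3 ligands and most receptors of the CC, CXC and XC classes lie left of 0. Open points have a group of 3 libraries with no count, so their fitted value is no bound.

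Within WT alone, 0 of 47 members and 0.0% of all genes were called at an FDR of 0.05 by edgeR. At an unadjusted p under 0.05, 16 members were lower (5.19% of all genes). DESeq2 called 4 members, beside 18 genes higher and 129 lower of all 18899, and limma-voom called 0 members. Within KO alone, edgeR called 0 members and 0.0% of all genes, and 17 members were lower at an unadjusted p under 0.05 (5.1% of all genes). DESeq2 called 6 members, beside 18 genes higher and 244 lower, and limma-voom called 0 members. The count of 17 in KO fell to 5 of 49 without KO + AAV-GFP mouse 69, and to 8 of 51 without KO + AAV-PRDM16 mouse 59 or 65. Of all genes, 652 of 19308 were lower without mouse 69, 841 of 19547 without mouse 59 and 796 of 19558 without mouse 65. The WT libraries of the viruses did not overlap for 12 lower members (7.76% of all genes), and the KO libraries for 13 (6.05% of all genes). Over both genotypes *Cxcl9*, *Cxcr3* and *Ccr9* had no overlap among the 12 libraries, as did 0.487% of all genes in the lower direction, and *Cxcr3* and *Ccr9* had passed the filter only through the AAV-GFP libraries, so their lack of overlap supports nothing. With 3 mice in a group, leaving out WT + AAV-GFP mouse 56 raised the members called over both genotypes from 0 to 12, and leaving out KO + AAV-GFP mouse 57 raised it to 5. The interaction of genotype and virus called 0 members and 0.0% of all genes, and neither DESeq2 nor limma-voom called any. Only *Cxcl1* had an unadjusted p under 0.05 there, with a log2 difference of -2.34 ± 0.82 and an adjusted p of 1. Without KO + AAV-PRDM16 mouse 76, 7 members were lower at that level, beside 396 of 19546 genes.

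Markers of leukocytes were lower in the same libraries. All 8 T cell markers, all 4 NK cell markers and all 7 macrophage markers were lower with AAV-PRDM16 at an unadjusted p under 0.05. So were 3 of 4 dendritic cell markers, 1 of 5 B cell markers and 1 of the 2 neutrophil markers tested. The filter bears on these counts too. The T cell marker *Cd8b1*, the NK cell marker *Ncr1* and the dendritic cell marker *Flt3* were at most at 0.119 CPM in AAV-PRDM16 libraries. Too low to pass the filter in those libraries alone, they had to be lower. For the other markers this was not tested. The summed T cell markers ran from 1.67 to 30.5 CPM in AAV-GFP and from 0.714 to 2.26 CPM in AAV-PRDM16 libraries, mouse 56 holding the lowest and mouse 69 the highest AAV-GFP value. The macrophage markers summed to 36.4 to 67.1 CPM in WT + AAV-GFP and 25.6 to 32.0 CPM in WT + AAV-PRDM16, and to 76.7 to 209 CPM and 49.7 to 58.1 CPM in KO. None of the 4 endothelial markers and 1 of the 6 brown adipocyte markers, which was higher, passed an unadjusted p of 0.05. The part of these cells in the chemokine differences was not tested.

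Many of the members lie in 3 gene clusters. The receptor cluster of chromosome 9 holds *Ccr9*, *Cxcr6*, *Xcr1*, *Ccr1*, *Ccr1l1*, *Ccr3* and *Ccr2* among others. Of these *Ccr9*, *Cxcr6*, *Xcr1*, *Ccr1* and *Ccr2* were tested, and each was lower with AAV-PRDM16 at an unadjusted p under 0.05. In the *Ccl* cluster of chromosome 11, 4 of 10 tested members were lower at that level (median -1.27), and in the *Cxcl* cluster of chromosome 5, 2 of 4 (median -0.94). Of all genes, 7.02% were lower at that level. *Ccr9*, *Ccl5* and *Ccl8* passed the filter only through the AAV-GFP libraries, which fixed their direction. The median of the chromosome 11 cluster includes *Ccl5*, *Ccl8* and *Ccl12*, which passed in the same way. The annotated span of *Ccr9* overlaps *Lztfl1* and *Slc6a20a*, *Cxcr6* overlaps *Fyco1*, *Cxcl16* overlaps *Zmynd15*, *Cxcl10* overlaps *Art3* and *Cx3cr1* overlaps several genes, so reads of these genes may be shared where the counting ignored strand, which was not stated.

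The genes that act downstream of the receptors or induce the ligands were counted as lists. Of 38 genes of chemokine signalling, from G proteins and kinases to Rac, with some related ligands and binding proteins, all tested, 17 were lower with AAV-PRDM16 at an unadjusted p under 0.05, where 7.02% of all genes were. The 4 with the highest mean count, the G protein and Rac genes *Gnb1*, *Rac1* and *Gnb2* and the receptor kinase *Grk3*, had log2 fold changes between -0.01 and 0.09. Of 20 tested inducers of chemokine genes, 5 were lower at that level, beside the same share of all genes. *Irf1*, an interferon-induced transcription factor singled out after its values were seen, was called by edgeR (log2 fold change -0.61, adjusted p = 0.0453). Among the inducers with the highest mean count, *Ifngr1*, *Stat6* and *Tnfrsf1a* lay between -0.14 and 0.08.

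Genotype was the other factor of the virus cohort. Over both viruses, KO mice had less *Ackr3* and more of the macrophage and granulocyte ligands *Ccl6* and *Ccl9* and of *Cxcr4* than WT mice, none past an FDR of 0.05. edgeR called 0 of 47 members against 2.18% of all genes, DESeq2 called 4 (*Ackr3*, *Ccl6*, *Ccl9* and *Cxcr4*) and limma-voom 1 (*Ackr3*). Of all 18899 genes, DESeq2 called 834 higher and 750 lower in KO, and limma-voom 576 higher and 693 lower. At an unadjusted p under 0.05, 6 members were higher and 2 lower in KO, where 9.54% of all genes were higher and 8.76% lower. The higher count was 3 without WT + AAV-GFP mouse 56, KO + AAV-GFP mouse 69 or KO + AAV-PRDM16 mouse 59 or 76, and the lower count was 6 without KO + AAV-PRDM16 mouse 76. In these settings between 1482 of 19547 and 1808 of 19466 genes were higher. Without KO + AAV-PRDM16 mouse 76, 1563 of 19546 genes were lower.

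*Ackr3* was at 41.3, 82.1 and 72.6 CPM in WT + AAV-GFP, and at 28.4, 45.3 and 68.8 CPM in KO + AAV-GFP. With AAV-PRDM16 it was at 96.5, 65.2 and 68.8 CPM in WT and at 30.9, 20.0 and 48.0 CPM in KO. The genotypes overlapped with AAV-GFP and were apart with AAV-PRDM16. The log2 fold change was -0.84 ± 0.26 over both viruses (adjusted p = 0.102) and -1.22 ± 0.37 with AAV-PRDM16 alone (adjusted p = 0.184). In untreated mice *Ackr3* was at 113 ± 45.0 CPM in WT and 134 ± 16.7 CPM in KO (SD, n = 5 each), with a log2 fold change of 0.25 ± 0.29.

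*Ccl6* was at 1.69, 6.71 and 4.80 CPM in WT + AAV-GFP and at 5.42, 5.32 and 18.6 CPM in KO + AAV-GFP. With AAV-PRDM16 it was at 1.08, 1.27 and 1.57 CPM in WT and at 2.90, 3.52 and 4.78 CPM in KO. With AAV-PRDM16 every KO mouse lay above every WT mouse, whereas mice of the genotypes overlapped with AAV-GFP (log2 fold change over both viruses 1.33 ± 0.38, adjusted p = 0.0842). *Ccl9*, its neighbour on chromosome 11, had a log2 fold change of 1.27 ± 0.40 (adjusted p = 0.109), and *Cxcr4* one of 1.18 ± 0.40 (adjusted p = 0.133). *Ccr2* and *Cxcl16* were higher in KO by 0.76 and 0.73 on the log2 scale at an unadjusted p under 0.05, and *Cxcr2*, lower in KO, rested on at most 23 counts a library. All 7 macrophage, 3 of 4 endothelial and 2 of 4 dendritic cell markers were higher and 4 of 6 brown adipocyte markers lower in KO at an unadjusted p under 0.05, and their part in these differences was not tested.

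**Figure D4:**
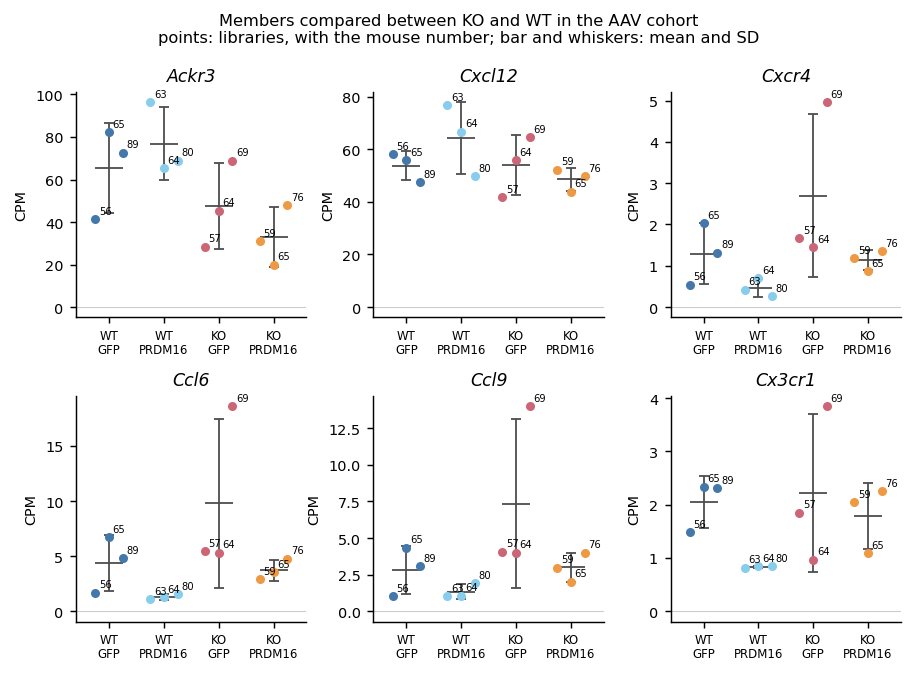
CPM of *Ackr3*, *Cxcl12*, *Cxcr4*, *Ccl6*, *Ccl9* and *Cx3cr1* in the 12 libraries of injected mice, with a point for each library and its mouse number, and the mean and SD of each group of 3. With AAV-PRDM16, *Ackr3* is at 20.0 to 48.0 CPM in KO and 65.2 to 96.5 CPM in WT, and *Ccl6* at 2.90 to 4.78 CPM in KO and 1.08 to 1.57 CPM in WT.

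Within each virus the genotype comparisons used 3 mice against 3 and shared those mice with the virus comparisons. With AAV-GFP, 0 members were called by edgeR, DESeq2 and limma-voom alike (0.0529% of all genes by edgeR), and 3 were higher in KO at an unadjusted p under 0.05 (4.98% of all genes), namely *Cxcl1*, *Ccl9* and *Ccl6*, and 1, *Cxcr2*, lower. Without KO + AAV-GFP mouse 69, 0 were higher and 3 lower, and the log2 fold changes of *Ccl9* and *Ccl6* were 0.52 and 0.28. Of all 19308 genes tested without that mouse, 617 were higher and 860 lower. The higher count was 1 without WT + AAV-GFP mouse 56 or 89, 5 without WT + AAV-GFP mouse 65 or KO + AAV-GFP mouse 57, and 6 without KO + AAV-GFP mouse 64. In these settings between 742 of 19478 and 1369 of 19521 genes were higher. *Cxcl1*, a neutrophil attractant, was at 0.117, 0.0881 and 0.0990 CPM in WT and 0.253, 0.305 and 0.438 CPM in KO, apart but low (log2 fold change 1.71 ± 0.58, adjusted p = 0.396). With AAV-PRDM16, edgeR called 0 members (0.0476% of all genes), and DESeq2 and limma-voom each called 1, *Ackr3*. Of all 18899 genes, DESeq2 called 309 higher and 317 lower there, and limma-voom 222 higher and 323 lower. At an unadjusted p under 0.05, 3 members were higher (6.92% of all genes) and 3 lower (6.8% of all genes). Leaving out 1 library moved the higher count between 0 (without KO + AAV-PRDM16 mouse 76) and 6 (without KO + AAV-GFP mouse 69), and the lower count between 1 (without WT + AAV-PRDM16 mouse 63 or KO + AAV-PRDM16 mouse 65) and 7 (without KO + AAV-PRDM16 mouse 76). Of all genes, 1004 of 19546 were higher and 1139 lower without mouse 76, and 1390 of 19308 were higher without mouse 69. Lower were 821 of 19541 genes without mouse 63 and 1287 of 19558 without mouse 65. The libraries did not overlap for 8 members that were higher in KO, beside 11.5% of all genes. *Ccl8*, among these 8, passed the filter only through the KO libraries and so had to be higher there. Among the 4 smallest p were *Ackr3* and *Ccl6*, *Cx3cr1* (log2 fold change 1.10 ± 0.44, adjusted p = 0.299) and *Ccl21c* (-2.56 ± 0.97, adjusted p = 0.279), a near-identical copy of *Ccl21a* whose count is uncertain. *Ccl21c*, counted among the 3 lower members, passed the filter only through the WT libraries, which fixed its direction.

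KO + AAV-PRDM16 against WT + AAV-GFP, the comparison of the treated knockout with the control, called 0 of 47 members and 0.00529% of all genes. DESeq2 called 3 members (*Cxcr3*, *Cxcl9* and *Ccl5*), beside 74 genes higher and 83 lower of all 18899, and limma-voom called 0 members. At an unadjusted p under 0.05, 7 members were lower, against 4.42% of all genes. That count was 4 without WT + AAV-GFP mouse 65 or KO + AAV-PRDM16 mouse 59 or 65, and 13 without WT + AAV-GFP mouse 56. Between 552 of 19455 and 996 of 19558 genes were lower where the count was 4, and 1029 of 19466 where it was 13. *Cxcl9* was 2.73-fold lower in the treated knockout (log2 fold change -1.45 ± 0.36, adjusted p = 0.39), and the others with the smallest p were *Cxcr3* (-4.76 ± 1.22), *Ccl5* (-3.36 ± 1.03) and *Ccr9* (-3.58 ± 1.20). *Cxcr3*, *Ccl5* and *Ccr9* had passed the low-count filter only through the AAV-GFP libraries, so their direction here supports nothing.

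In the untreated cohort, values differed widely between mice of 1 group. The neutrophil attractants *Cxcl1* and *Cxcl2*, the monocyte attractants *Ccl2* and *Ccl7* and the ligands *Ccl6* and *Ccl9* had their 3 highest values in WT mouse 4 and KO mice 1 and 2, for *Cxcl2* with KO mouse 4 close behind. edgeR, DESeq2 and limma-voom each called 0 of 42 members, and edgeR called 0.0% of all genes. At an unadjusted p under 0.05, 2 members were higher in libraries labelled KO (4.99% of all genes) and 0 lower (10.9% of all genes). The 2, *Ccr7* and *Cxcl2*, passed the low-count filter only through the KO libraries, which fixed their direction. Omitting WT mouse 4 raised the higher count to 15, beside 1198 of 18068 genes, and omitting KO mouse 4 to 5, beside 752 of 18377. It was 1 when WT mouse 3 or 5 was omitted, beside 1366 of 18354 and 668 of 18230 genes. When WT mouse 1, WT mouse 2 or KO mouse 2 was omitted it was 0, beside 393 of 18212, 466 of 18194 and 1318 of 18171 genes. The median log2 fold change of the 42 members was 0.77, against 0.04 over all genes tested, but 10 of the 42 passed the filter only through the KO libraries and 2 only through WT, which tilts it upward. Omitting WT mice 1 and 2 gave 0.35, omitting WT mouse 4 gave 1.27, omitting KO mouse 2 gave 0.48, and the 4 libraries with Y-linked transcripts alone gave 1.51.

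*Cxcl1* and *Cxcl2* are neighbouring genes on the plus strand of chromosome 5 whose proteins bind CXCR2 on neutrophils, and both are known targets of NF-kB. Their promoter windows are shown, as above from RefSeq (GRCm38.p6), because the genes were high in the same mice, with capitals marking a match to the NF-kB site spelled GGGANTTTCC.
Cxcl1, chr5:90890995-90891294, plus strand: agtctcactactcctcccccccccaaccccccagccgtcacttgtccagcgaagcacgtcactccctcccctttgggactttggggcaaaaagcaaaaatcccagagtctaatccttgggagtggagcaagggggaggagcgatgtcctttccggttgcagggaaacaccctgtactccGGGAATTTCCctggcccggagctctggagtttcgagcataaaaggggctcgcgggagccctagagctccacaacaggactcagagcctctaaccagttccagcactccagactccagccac
Cxcl2, chr5:90903649-90903948, plus strand: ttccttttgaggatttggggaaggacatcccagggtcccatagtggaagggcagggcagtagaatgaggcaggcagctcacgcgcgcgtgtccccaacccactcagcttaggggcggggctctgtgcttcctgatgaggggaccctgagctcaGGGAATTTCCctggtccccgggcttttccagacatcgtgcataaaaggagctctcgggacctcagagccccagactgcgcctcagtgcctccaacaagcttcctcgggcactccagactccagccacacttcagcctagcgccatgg
The match lay from -71 to -62 in *Cxcl1* and from -97 to -88 in *Cxcl2*. These letters were in 0.385% of all windows and in 4 of the 46 member windows, those of *Cxcl1*, *Cxcl2*, their duplicate *Cxcl3* and *Ccr3*. The spelling was chosen with the data known, and a match is no evidence of binding in BAT.

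*Cxcl1* was at 0.123, 0.124, 2.26, 24.2 and 1.96 CPM in WT mice 1 to 5 and at 16.3, 30.3, 2.24, 2.76 and 4.30 CPM in KO mice 1 to 5. *Cxcl2* was at 0.0701, 0.0248, 0.294, 1.33 and 0.115 CPM in WT and at 1.14, 6.07, 0.254, 0.933 and 0.777 CPM in KO. Both ligands were highest in KO mouse 2 and lowest in WT mice 1 and 2, and the groups overlapped. *Cxcl2* had a log2 fold change of 2.32 ± 1.06 (adjusted p = 0.312) and *Cxcl1* one of 0.97 ± 1.21 (adjusted p = 0.666).

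*Ccl6* was at 2.45, 1.65, 3.86, 18.3 and 4.92 CPM in WT mice and at 41.1, 16.8, 4.05, 3.22 and 4.45 CPM in KO mice. *Ccl9* was at 1.31, 1.05, 4.30, 21.3 and 4.10 CPM in WT and at 41.2, 19.8, 3.76, 2.94 and 3.40 CPM in KO. WT mouse 4 and KO mice 1 and 2 stood above the other 7, which overlapped between the genotypes. *Ccr2* was at 6.70, 4.77 and 5.31 CPM in those 3 mice and from 0.622 to 2.11 CPM in the others, and *Ccl7* at 6.86, 6.60 and 9.32 CPM against 0 to 2.59 CPM. The macrophage markers summed to 159, 238 and 170 CPM in the same 3 mice and to 29.1 to 92.2 CPM in the others, and their part in these values was not tested.

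*Ccr7*, the receptor that leads dendritic cells and T cells to lymph nodes, was the other member at an unadjusted p under 0.05. It was at 0.105, 0.0497, 0.250, 0.701 and 0.144 CPM in WT and at 0.223, 1.39, 0.749, 0.675 and 0.915 CPM in KO. The groups overlapped through WT mouse 4 and KO mouse 1 (log2 fold change 1.66 ± 0.72, adjusted p = 0.308). *Cxcl12* was lowest in KO mouse 1, with 31.9 CPM beside 46.6 to 85.9 CPM in the other 9 libraries (log2 fold change -0.14 ± 0.26).

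**Figure D5:**
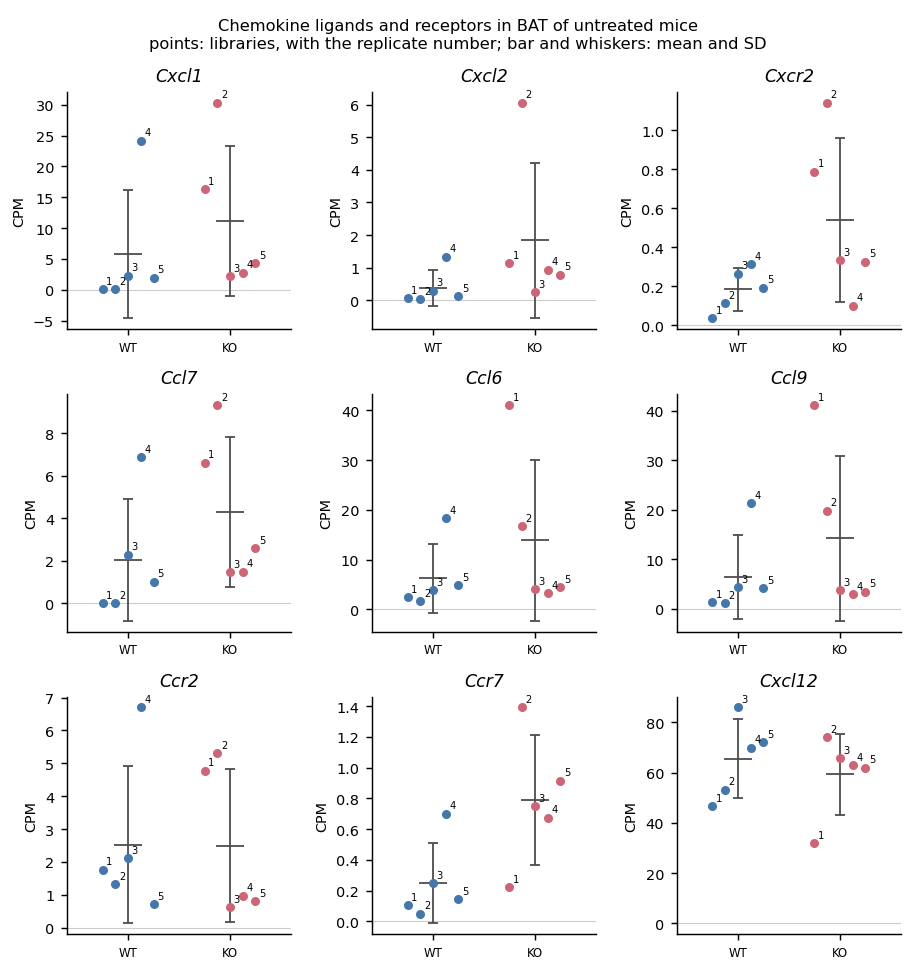
CPM of 9 members in the 10 libraries of untreated mice, with a point for each library and its replicate number, and the mean and SD of each group of 5. WT mouse 4 and KO mice 1 and 2 are high in *Cxcl1*, *Ccl7*, *Ccl6*, *Ccl9* and *Ccr2*, and the groups overlap in every panel.

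With the looser limits that the study chose here, a fold of 2 or more with an FDR up to 0.5, 13 members were higher in libraries labelled KO (6.04% of all genes) and 1, *Ccl28*, was lower (4.72% of all genes). They were *Ccr7*, *Cxcl2*, *Cxcr2*, *Cxcr4*, *Ccl3*, *Ccl4*, *Ccl5*, *Ccl6*, *Ccl9*, *Ccl22* and 3 copies of *Ccl21*, whose counts are uncertain. *Ccr7*, *Cxcl2*, *Ccl3*, *Ccl4*, *Ccl5* and *Ccl22* passed the low-count filter only through the KO libraries and so had to be higher there. The count was 0 without WT mouse 1, WT mouse 2 or KO mouse 5, without WT mice 1 and 2 together, in the 4 libraries with Y-linked transcripts (WT mice 1, 2 and 4 and KO mouse 2) alone and with these transcripts as a covariate. In these settings 0 of all genes passed as well, except in the 4 libraries alone, where 181 genes were higher and 9 lower. The count of members was 26 without WT mouse 4, where 1760 of 18068 genes were higher and 1202 lower. It was 7 without KO mouse 2, where 1133 of 18171 genes were higher and 1189 lower. The neutrophil markers summed to 0.508 and 0.727 CPM in WT mice 1 and 2 and to 5.34 to 16.2 CPM in the other 8 libraries, with *Ly6g* at 0 in 9 of the 10. The skeletal muscle markers summed to between 4.59 and 4654 CPM over the 10 libraries. The part of these differences between libraries in the count was not tested.

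Of the 38 signalling genes, 3 were higher in libraries labelled KO at an unadjusted p under 0.05, and of 20 tested inducers 5 were higher and 1 lower, where 4.99% of all genes were higher and 10.9% lower. Among the inducers with the highest mean count, *Tnfrsf1a*, a TNF receptor, had a log2 fold change of 0.78 (adjusted p = 0.305) and *Nfkbia* one of 0.69. In the virus cohort the genotype contrast over both viruses had 12 signalling genes higher and 3 lower in KO at that level, and 4 inducers higher, where 9.54% of all genes were higher and 8.76% lower. edgeR called the interferon-gamma receptor *Ifngr1* (log2 fold change 0.66, adjusted p = 0.0145) and, named after their values were seen, *Tlr3* (0.49, adjusted p = 0.0216) and *Elmo1* (0.66, adjusted p = 0.035).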

How the data were processed

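BAT RNA of 22 mice was sequenced as mRNA libraries made with the SureSelect XT HS2 kit, 1 library per mouse. Base calls were made with BCL Convert, per the study's methods. Per the labels, the submitters' processing notes name bcl2fastq 2.20, Trimmomatic 0.36, HISAT2 and GRCm38.p6. The counting tool, the annotation and the handling of strand and molecular identifiers were not given in the sources used here. The authors deposited whole-number counts per Ensembl gene, without normalization, in a table for each cohort. Columns were matched to mice by the sample labels.

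GENCODE M21 (GRCm38) gave symbols for 55227 of 55487 identifiers, and exon lengths. In R 4.3.3, genes kept by filterByExpr (17869 untreated, 18899 virus) were scaled by TMM and compared by the quasi-likelihood test of edgeR 4.0.16, two-sided, with Benjamini-Hochberg adjustment over all genes tested. The untreated fit used 10 libraries and the virus fit all 12, with a coefficient for each group. CPM used TMM-scaled library sizes. Errors of fold changes are SE from the fit. For groups with no count, bounds used a floor of 3 counts, for counting error alone. The fits were tested on simulated data. Alternatives were DESeq2 1.42.0, limma-voom (limma 3.58.1) with quality weights, RLE scaling, no filter, at least 0.5 CPM in 1 library, only the 2 groups compared, a replicate block and each library left out.

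The members, the gene lists and the rule for named genes were chosen with earlier results of these data known. Named were up to 4 members with the smallest unadjusted p under 0.05 in a comparison, the 10 with the highest level in each cohort and textbook ligand and receptor sets. Members named beyond this rule were picked after their values were seen. Signalling genes and inducers are counted, with up to 4 named by highest mean count. Some genes of these lists are counted but not reported here by name.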

Additional observations from a re-analysis of the deposited data

Results flagged for a closer look

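In the untreated groups of 5, the highest or lowest library was set against the gap to its neighbour, as a share of the group's range, for the named members. Of 54 such groups 9 had a library apart by Dixon's 95% value. Chance gives about 1 in 20 only for normally distributed values. CPM of several of these members were skewed, so the 9 of 54 cannot be set against that rate. WT mouse 4 was the high library for 7 members. It held 24.2 CPM of *Cxcl1*, where the other 4 WT libraries held 0.123 to 2.26 CPM, and 1.33 CPM of *Cxcl2*, where they held 0.0248 to 0.294 CPM. Its 18.3 CPM of *Ccl6* and 21.3 CPM of *Ccl9* stood beside at most 4.92 and 4.30 CPM in the others. Its 6.70 CPM of *Ccr2*, 6.36 CPM of *Cxcr4* and 0.421 CPM of *Cxcr3* stood beside at most 2.11, 1.72 and 0.153 CPM. KO mouse 2 was apart for *Cxcl2*, with 6.07 CPM beside 0.254 to 1.14 CPM, and KO mouse 1 for *Cxcl12*, with 31.9 CPM beside 61.9 to 74.0 CPM. These genes share their libraries, so the flags are not independent of each other.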

How the results depend on the processing

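For the members with the smallest p in each comparison, the fold changes kept their direction under the alternatives run, and 35 alternative values passed the FDR of 0.05 where 538 stayed on the same side. These members were picked on the same data, and for some the filter had fixed the direction. Their stable direction is therefore no independent support. Over both genotypes, the members called for the virus rose from 0 to 15 with DESeq2, 3 with RLE scaling and 5 without a filter, and ran from 0 to 12 when each library was left out. Of all genes, DESeq2 called 41 higher and 561 lower, RLE scaling 2 and 74, and the fit without a filter 1 and 143. Where 12 members were called, without WT + AAV-GFP mouse 56, 3 of all genes were higher and 349 lower. Some of the members called had passed the main filter only through the AAV-GFP libraries. DESeq2 also called 4 members for the virus in WT, 6 in KO, 3 for KO + AAV-PRDM16 against WT + AAV-GFP, 4 for genotype over both viruses and 1 for KO against WT with AAV-PRDM16, and limma-voom called 1 for genotype over both viruses and 1 for KO against WT with AAV-PRDM16. In the untreated cohort the 14 members past 2-fold and an FDR of 0.5 became 4 with DESeq2, 9 with limma-voom, 0 without WT mice 1 and 2, 0 in the libraries with Y-linked transcripts and 0 with these as a covariate, and ran from 0 to 26 when each library was left out. Of all genes, 1080 were higher and 844 lower in the main fit, 499 and 355 with DESeq2 and 673 and 600 with limma-voom. Without WT mice 1 and 2, and with the covariate, 0 of all genes passed as well. Whether the replicate numbers pair the mice is not known. Deviations of same-numbered libraries correlated between -0.292 and 0.154, which cannot exclude a pairing. With the number as a replicate block the untreated count stayed at 14 and 0 members were called in each comparison. The causes of these shifts were not tested. With 3 mice a group and at most 74 counts a library for *Ccr9*, *Xcl1*, *Ccr8* and *Cxcr2*, small differences in these members were not detectable.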
